A study of Nothobranchius furzeri with 8 samples.

Results

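Neuronal cytoskeleton and synapse genes are represented here by 5 genes of the turquoise killifish Nothobranchius furzeri: nefl (Nfu_g_1_008939), grip1 (Nfu_g_1_011723), uchl1 (Nfu_g_1_009807), snap25a (Nfu_g_1_022084) and stmn2a (Nfu_g_1_014491). They are 5 of the 23546 genes in the deposited tables and 5 of the 19536 genes with enough counts to be tested. All 5 passed that filter. The genes were chosen by the identifier and symbol columns of the study's list of changed genes, which was selected on the measured difference between the same fish. The difference between the groups is therefore given for these genes as a description. How many of them passed the threshold used for all genes is stated beside the share or number of all genes, and is not a test of these genes.

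RNA-seq was performed on the brain of fish of 12 weeks of age, to ask which transcripts differ when neuronal miR-29 is sequestered. The 4 sponge-29 fish (libraries 46 to 49) were of the kif5a::miR-29sponge genotype, in which a zebrafish kif5aa promoter, used for its neuronal activity, drives a fluorescent transcript carrying miR-29 binding sites. The 4 wild-type fish (libraries 42 to 45) were of the MZM-04/10p strain. The study names the MZM-04/10 strain for all its killifish, the transgenic line included, and describes the sponge-29 fish as F1. The study calls the libraries biological replicates, and each is taken here as 1 fish. The labels do not say which founder line each sponge-29 library came from, so a property of 1 line and an effect of the sponge cannot be told apart. miR-29 itself was not measured in these tables, and they do not hold a check of the sponge in each fish.

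Neurons keep long processes that depend on a special cytoskeleton and on transport along it. Neurofilaments fill axons and set their calibre, and stathmins bind tubulin and regulate microtubule growth. At the nerve terminal, SNARE proteins fuse transmitter vesicles with the membrane, while in the postsynaptic membrane PDZ-domain scaffolds such as GRIP1 hold glutamate receptors in place. UCHL1 is a deubiquitinating enzyme that is among the most abundant proteins of mammalian neurons.

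Sequencing yielded 18014090 to 21081878 counts per library in sponge-29 fish and 21665735 to 24902251 counts per library in wild-type fish, so every sponge-29 library was shallower than every wild-type library. The part of depth in the results was not tested and cannot be told apart from the groups. The 5 genes had 732 to 8567 counts per fish, for which counting error alone is 1.08% to 3.70%. That error does not cover other effects of depth. In the edgeR quasi-likelihood test, 1201 genes (6.15%) rose and 1140 genes (5.84%) fell in sponge-29 brains at a Benjamini-Hochberg adjusted p below 0.05, together 12.0% of the genes tested. The median log2 fold change of all genes tested was -0.006. In 4273 genes (21.9%) the scaled values (CPM, counts scaled to library size, with TMM factors) of the groups did not overlap.

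The tissue label was examined with marker genes. Their symbols come from the study's lists of changed genes, so most markers are changed by that choice, and their counts are no independent evidence of a change in cell types. The 13 neuron marker identifiers, which include 4 of the 5 genes, were detected in every fish, and their summed level was 1647 to 1986 CPM in sponge-29 fish and 1242 to 1413 CPM in wild-type fish. Without those 4 genes the remaining 9 neuron marker identifiers summed to 916.3 to 1193 CPM in sponge-29 fish and 694.2 to 771.4 CPM in wild-type fish. Much of that difference lay in neurod, which averaged 367.4 ± 109.3 CPM in sponge-29 fish and 159.3 ± 34.56 CPM in wild-type fish (SD, n = 4 each). Of the 9 identifiers 6 were called higher, among them 2 that share the symbol islr2 (Nfu_g_1_003132 and Nfu_g_1_003326). The 2 called lower were celf3a and myt1la. Markers of other cell types moved with the groups too: 4 of 5 dividing cell markers fell, with sums of 40.16 to 69.74 CPM in sponge-29 fish and 107.7 to 158.7 CPM in wild-type fish. Of the 5 blood vessel marker identifiers, which include 2 named ptprb, 3 fell. The 5 summed to 84.0 to 107.3 CPM in sponge-29 fish and 114.9 to 165.0 CPM in wild-type fish. All 3 oligodendrocyte markers rose, with sums of 100.3 to 123.4 CPM in sponge-29 fish and 74.36 to 86.57 CPM in wild-type fish, and so did 5 of 6 liver markers, with sums of 2801 to 3774 CPM in sponge-29 fish and 2278 to 2534 CPM in wild-type fish. The liver sums lay above the neuron sums in both groups. Each sum holds only genes named in the lists of changed genes, so the sums do not compare the tissues. AHSG alone averaged 2221 CPM in sponge-29 fish and 1613 CPM in wild-type fish. The next highest of the liver markers, serpina10a, averaged 553.5 CPM in sponge-29 fish and 431.5 CPM in wild-type fish. Whether these genes mark liver in this species, or whether other tissue was present, was not tested. Of the 4 astroglia markers 3 rose, while bcan had a log2 fold change of -0.51 and did not pass, and the sums overlapped, at 1374 to 1651 CPM in sponge-29 fish and 1178 to 1570 CPM in wild-type fish. The sums of microglia and muscle markers overlapped too. Of the 2 microglia markers 1 rose, while ITGAM had a log2 fold change of -1.84 ± 0.77 (SE) and did not pass. Of the 5 muscle markers 2 rose and 1 fell. No marker of any list was at 0 in any fish. In whole brain, more cells of a type and more RNA per cell cannot be told apart, and the part of cell composition in the values that follow was not tested.

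Of the 5 genes, nefl, uchl1, snap25a and stmn2a had higher mean levels in sponge-29 brains, by 1.6, 1.5, 1.4 and 1.32 times, while grip1 had 0.65 times its wild-type level. At the threshold above, 4 of the 5 passed and nefl did not, against 12.0% of all genes tested. In 4 of the 5 the fish of the groups did not overlap, against 21.9% of all genes tested. Since these same differences put the genes on the list, nothing is read from these shares.

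**Figure D1:**
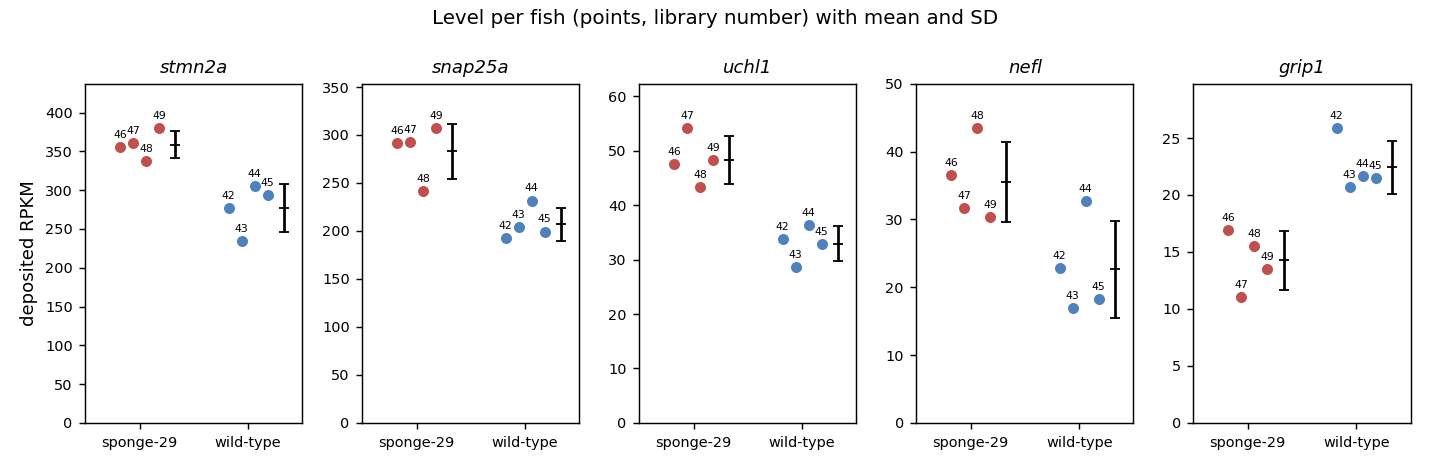
Deposited RPKM (y axis, from 0) of the 5 genes in each fish. Points are single fish labelled by library number, sponge-29 left and wild-type right, and bars give mean and SD. For stmn2a, snap25a and uchl1 every sponge-29 fish lies above every wild-type fish, for grip1 every sponge-29 fish lies below, and for nefl wild-type fish 44 lies within the sponge-29 range.

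nefl encodes the light subunit of the neurofilament, the core protein on which the other subunits assemble. Its level was 36.51, 31.66, 43.51 and 30.37 RPKM in sponge-29 fish 46, 47, 48 and 49, against 22.77, 16.96, 32.67 and 18.20 RPKM in wild-type fish 42, 43, 44 and 45, where RPKM is the deposited level per kilobase of gene, scaled to library size. Sponge-29 fish 48 had the highest value, and wild-type fish 44 exceeded sponge-29 fish 47 and 49, so the groups overlapped. On the CPM scale nefl averaged 87.06 ± 13.93 in sponge-29 fish and 54.33 ± 17.15 in wild-type fish (SD, n = 4 each), a log2 fold change of 0.68 ± 0.21 (SE). It had the widest spread between fish of the 5 genes, with a biological coefficient of variation of 21.4%, which ranks above 69.2% of all genes tested. Without wild-type fish 44 the log2 fold change was 0.91, and in the other leave-one-out fits it was 0.56 to 0.74.

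stmn2a encodes a stathmin of the type that mammals express in growing and regenerating axons. It was the most abundant of the 5 genes per length. The level was 355.4, 361.5, 338.2 and 380.4 RPKM in sponge-29 fish 46, 47, 48 and 49, against 276.9, 234.6, 305.3 and 293.5 RPKM in wild-type fish 42, 43, 44 and 45. The groups did not overlap, and the lowest sponge-29 fish had 1.12 times the CPM of the highest wild-type fish. On average stmn2a had 409.5 ± 23.57 CPM in sponge-29 fish and 309.7 ± 36.01 CPM in wild-type fish (SD, n = 4 each), a log2 fold change of 0.40 ± 0.09 (SE), the smallest of the 5 in size. It also had the lowest biological coefficient of variation of the 5, 10.4%. Leaving out each fish in turn gave log2 fold changes of 0.33 to 0.45.

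snap25a encodes a SNARE protein of the presynaptic membrane, which pairs with syntaxin and synaptobrevin to fuse vesicles. The level was 291.2, 292.5, 241.2 and 307.4 RPKM in sponge-29 fish 46, 47, 48 and 49, against 192.4, 204.1, 231.7 and 199.4 RPKM in wild-type fish 42, 43, 44 and 45. Sponge-29 fish 48 was the lowest of its group and wild-type fish 44 the highest of its own, and the gap between them was 1.05 times in CPM. The means were 176.4 ± 19.58 CPM in sponge-29 fish and 125.9 ± 10.75 CPM in wild-type fish (SD, n = 4 each), a log2 fold change of 0.49 ± 0.09 (SE). With 1 fish left out it ranged from 0.44 to 0.56, the highest value being that without sponge-29 fish 48.

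uchl1 encodes a ubiquitin C-terminal hydrolase, which is widely used as a marker of neurons. It had 47.48, 54.20, 43.28 and 48.24 RPKM in sponge-29 fish 46, 47, 48 and 49, against 33.74, 28.70, 36.44 and 32.82 RPKM in wild-type fish 42, 43, 44 and 45. The groups did not overlap and stood 1.20 times apart in CPM at their nearest fish, the widest gap of the 5 genes. The means were 109.8 ± 10.38 CPM in sponge-29 fish and 73.15 ± 7.312 CPM in wild-type fish (SD, n = 4 each), a log2 fold change of 0.59 ± 0.09 (SE). With 1 fish left out the log2 fold change was 0.52 to 0.64.

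grip1 encodes a scaffold with several PDZ domains that binds AMPA-type glutamate receptors. It was the only one of the 5 with a lower level in the libraries labelled sponge-29, in the deposited counts and in the deposited RPKM alike. The study lists grip1 among predicted miR-29 targets that rose in sponge-29 fish, which is the opposite direction. It lists nefl among those targets too, and the mean of nefl was higher in sponge-29 fish here as well. The reason for the disagreement on grip1 was not established. The level was 16.94, 11.03, 15.51 and 13.53 RPKM in sponge-29 fish 46, 47, 48 and 49, against 25.89, 20.73, 21.67 and 21.53 RPKM in wild-type fish 42, 43, 44 and 45. Every sponge-29 fish was below every wild-type fish, with sponge-29 fish 47 the lowest and wild-type fish 42 the highest. On average grip1 had 48.97 ± 8.972 CPM in sponge-29 fish and 75.36 ± 7.496 CPM in wild-type fish (SD, n = 4 each), a log2 fold change of -0.62 ± 0.13 (SE). With 1 fish left out the log2 fold change was -0.73 to -0.51.

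**Figure D2:**
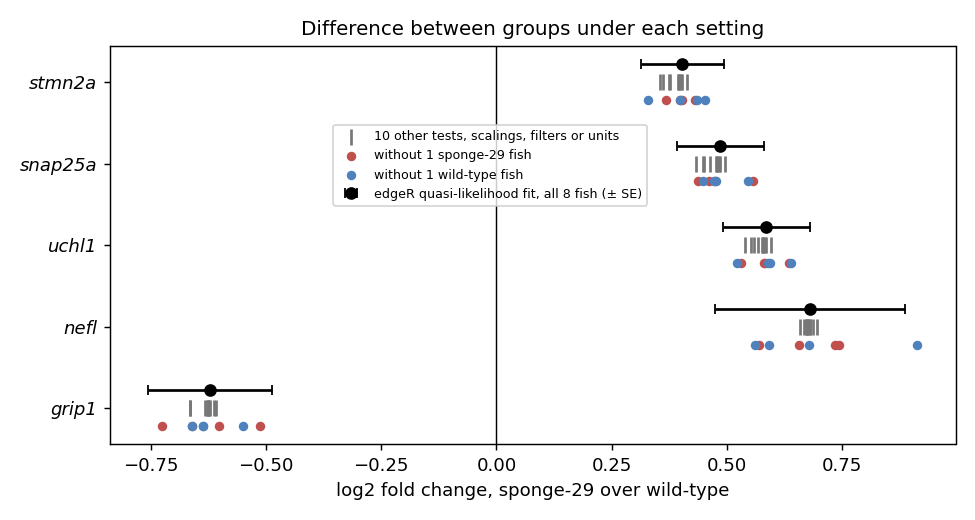
Log2 fold change of sponge-29 over wild-type (x axis) for the 5 genes. Black points give the edgeR quasi-likelihood fit with its SE, grey ticks the 10 other tests, scalings, filters or units, and coloured points the fits without 1 sponge-29 or 1 wild-type fish. All 90 alternative values lie on the same side of 0 as the fit to all 8 fish, and nefl moves most when wild-type fish 44 is left out.

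Levels were then compared between the genes, using RPKM, which corrects for the length of each gene model. Many models may hold coding sequence only, as described below, so levels may not be fully comparable between genes. The order of the means was stmn2a, snap25a, uchl1, nefl and grip1 in sponge-29 fish and the same in wild-type fish. stmn2a exceeded snap25a and snap25a exceeded uchl1 in all 8 fish, with ranges that did not overlap in either group. The neighbours uchl1 and nefl were not separated, since their ranges overlapped in both groups, although uchl1 was the higher in 3 of 4 sponge-29 fish and 4 of 4 wild-type fish. The lower end of the order differed: nefl exceeded grip1 in 4 of 4 sponge-29 fish, with a mean ratio of 2.52, and in 1 of 4 wild-type fish, with a mean ratio of 1.01. Both genes were chosen on the difference between the groups, so this shift is no separate evidence of it. By level, stmn2a and snap25a ranked above 98.7% to 99.1% of all genes tested, uchl1 above 92.2% in sponge-29 fish and 88.2% in wild-type fish, nefl above 88.9% in sponge-29 fish and 81.4% in wild-type fish, and grip1 above 70.9% in sponge-29 fish and 81.3% in wild-type fish.

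Ratios within a fish do not depend on the scaling of its library. The ratio of snap25a to stmn2a RPKM was 0.713 to 0.819 in sponge-29 fish and 0.679 to 0.870 in wild-type fish, with overlap between the groups. The ratio of uchl1 to stmn2a was 0.127 to 0.150 in sponge-29 fish and 0.112 to 0.122 in wild-type fish, without overlap. The ratio of nefl to stmn2a was 0.0798 to 0.129 in sponge-29 fish and 0.062 to 0.107 in wild-type fish, with overlap. The ratio of grip1 to stmn2a was 0.0305 to 0.0477 in sponge-29 fish and 0.071 to 0.0935 in wild-type fish, the clearest separation of the 4 ratios. These genes were chosen on the difference between the groups, so a separated ratio is no separate evidence of it. The ratios also keep the trend of each library with gene length, which is described below.

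To describe how the genes varied among fish of the same group, the group mean of log2 CPM was removed and the deviations were correlated over the 8 fish. uchl1, snap25a and stmn2a deviated together, with Pearson r of 0.797 for uchl1 and stmn2a, 0.630 for uchl1 and snap25a and 0.563 for snap25a and stmn2a. In wild-type fish 44 all 3 were above their group mean, by 0.154, 0.170 and 0.147 for uchl1, snap25a and stmn2a on the log2 scale, and in sponge-29 fish 48 all 3 were below it, at -0.173, -0.245 and -0.104. These 3 values of r stayed between 0.352 and 0.938 when any 1 fish was left out. Spearman's rho was 0.643 for uchl1 and stmn2a, 0.405 for uchl1 and snap25a and 0.619 for snap25a and stmn2a. How many other pairs of genes reach such values was not examined. grip1 did not share the pattern, with r of -0.317 to uchl1, -0.311 to snap25a and -0.002 to stmn2a.

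nefl moved with uchl1, snap25a and stmn2a in some fish and against them in others. It was 0.580 above its group mean in wild-type fish 44, where uchl1, snap25a and stmn2a were also high, and 0.288 above it in sponge-29 fish 48, where they were low. Its r with snap25a was accordingly 0.034, but -0.816 without wild-type fish 44 and 0.62 without sponge-29 fish 48. The median r of the 10 pairs was 0.322. It was -0.051 without wild-type fish 43 and -0.019 without wild-type fish 44. The median therefore does not show a shared variation of the 5 genes as a set. All the values share library scaling and depth within a fish, and with 8 fish they describe these animals only.

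**Figure D3:**
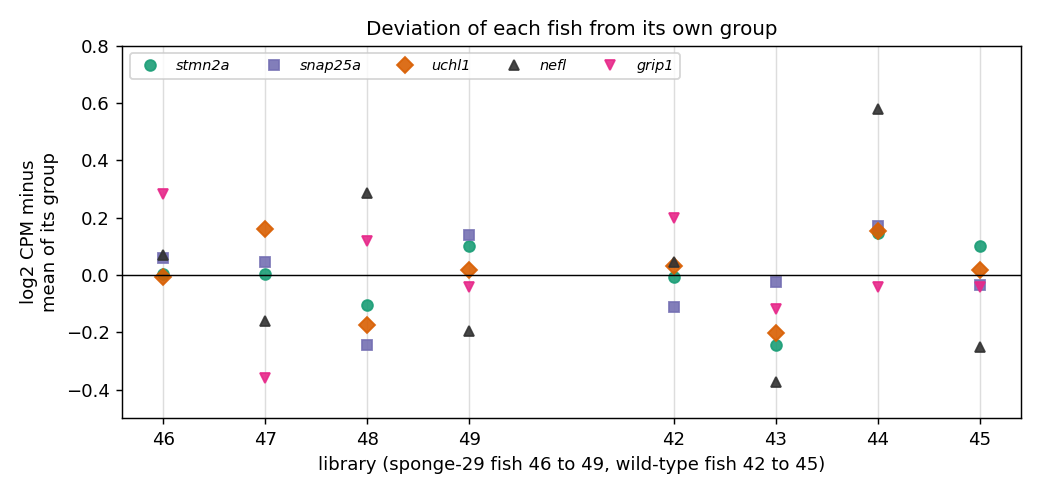
Deviation of log2 CPM from the mean of its own group (y axis) for each gene in each fish, sponge-29 fish 46 to 49 left and wild-type fish 42 to 45 right. uchl1, snap25a and stmn2a lie together above 0 in wild-type fish 44 and below 0 in sponge-29 fish 48 and wild-type fish 43, whereas nefl lies above 0 in both 44 and 48.

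The genes whose deviations were most like those of each of the 5 were taken from the 1417 other tested identifiers that carry a symbol. For stmn2a these were sirt3 (r = 0.976), a mitochondrial deacetylase, IDH2 (r = 0.967), a mitochondrial isocitrate dehydrogenase, and ass1 (r = 0.935), the argininosuccinate synthase of arginine synthesis. For uchl1 they were RAB27B (r = 0.933), a GTPase of secretory vesicles, ccdc88b (r = 0.930) and fam177a1 (r = 0.928). For grip1 they were BRSK2 (r = 0.972), a kinase of neuronal polarity in mice, sobpa (r = 0.963) and mri1 (r = 0.941), an enzyme of methionine salvage. For snap25a they were acvr1l (r = 0.916), a receptor kinase of BMP signalling, GABRB1 (r = 0.893), a GABA-A receptor subunit, and si:ch211-87m7.2 (r = 0.889). For nefl they were GALNTL6 (r = 0.945), si:ch211-222n4.10 (r = 0.891) and myh10 (r = 0.883), a non-muscle myosin heavy chain. Between 0.195% and 0.594% of all genes tested had an r over 0.9 with a given one of the 5, and such values are picked as the highest of many over 8 fish. The likeness within groups and the difference between groups are separate measures: GALNTL6, whose deviations followed those of nefl, had a log2 fold change of -0.75 ± 0.10 (SE), against 0.68 for nefl.

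The 5 genes were set beside 6 lists of neuronal genes with 94 tested identifiers in all, the 5 included. Symbols were taken from the study's lists of changed genes, most of which were selected on these libraries, so the lists are not independent evidence of a direction and their high share of calls is fixed by that choice. Of the 94 identifiers 33 rose, 49 fell and 12 did not pass. They split by length: of the 31 that were shorter than the median tested gene (2654 bases) 19 rose and 5 fell, and of the 63 at or above it 14 rose and 44 fell.

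Among 22 identifiers for the neuronal cytoskeleton and axonal transport, 8 rose, 10 fell and 4 did not pass, and the median log2 fold change was -0.37. Some relatives and partners of stmn2a and nefl were on the rising side. stmn4l, another stathmin, rose by 0.42 ± 0.07 (log2, SE), MAP1B, a microtubule-associated protein of axons, rose by 0.38 ± 0.10, and synm, an intermediate filament protein that co-assembles with other filament proteins, rose by 0.64 ± 0.17. tagln3b, an actin-binding protein of neurons, rose by 0.54 ± 0.11. The tubulin gene TUBB4A averaged 1017 ± 112.6 CPM in sponge-29 fish and 799.5 ± 74.33 CPM in wild-type fish (SD, n = 4 each), but did not pass. Another tubulin gene, tuba8l4, went the other way and did not pass either. It averaged 30.01 ± 5.123 CPM in sponge-29 fish and 41.02 ± 5.952 CPM in wild-type fish. The kinesin motors KIF21B and kif3b fell, by log2 fold changes of -0.93 ± 0.09 and -0.45 ± 0.08 (SE).

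Among 19 presynaptic identifiers, 5 rose, 13 fell and 1 did not pass, the median log2 fold change was -0.40, and snap25a was on the smaller side. NAPB, a SNAP protein that disassembles SNARE complexes after fusion, rose with it by 0.45 ± 0.07 (log2, SE), and sncga, a gamma-synuclein, rose by 0.78 ± 0.14. UNC13C, which primes vesicles for fusion, fell by a log2 fold change of -0.65 ± 0.15, snphb, a syntaphilin that anchors axonal mitochondria, by -0.59 ± 0.13, and syt12, a synaptotagmin, by -0.48 ± 0.11. The calcium channel gene cacna1bb averaged 70.08 ± 12.21 CPM in sponge-29 fish and 94.05 ± 6.77 CPM in wild-type fish (SD, n = 4 each) and did not pass.

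Among 20 identifiers for postsynaptic receptors and scaffolds, 3 rose, 14 fell and 3 did not pass, the median log2 fold change was -0.46, and grip1 was on the larger side. Its paralogue grip2b fell by a log2 fold change of -0.36 ± 0.09 (SE), the AMPA receptor subunit gene gria3b by -0.45 ± 0.09 and the NMDA receptor subunit gene grin2ab by -0.36 ± 0.09. The largest falls were those of DLGAP2 (Nfu_g_1_015348), a scaffold of the postsynaptic density, at -0.70 ± 0.18, and shank2 (Nfu_g_1_003805), at -0.65 ± 0.11. Each of these symbols is given to another identifier, which fell by less, at -0.46 for DLGAP2 and -0.39 for shank2, and reads shared between them could not be examined. GABRB1 rose by 0.79 ± 0.22, although its groups overlapped, and SHISA9, an AMPA receptor auxiliary protein, by 0.53 ± 0.15.

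Of 13 synaptic adhesion identifiers 5 rose, 7 fell and 1 did not pass, and the median log2 fold change was -0.39. The largest rises were those of the identifiers named cbln12, a cerebellin-type protein, at 1.04 ± 0.23 and 0.79 ± 0.18 (log2, SE), and the largest falls those of lrrtm2 at -0.52 ± 0.11 and nrxn3b (Nfu_g_1_012400) at -0.49 ± 0.12. uchl1 was the only one of the 6 deubiquitinating enzymes listed that rose, and the other 5 fell, among them usp2a at -0.51 ± 0.11 and OTUD7A at -0.40 ± 0.10. It was also the shortest of the 6, at 2245 bases against 3275 to 10591. With the length trend removed, 2 of the other 5 were called lower. Of 14 identifiers for neuropeptides and their granules 11 rose, none fell and 3 did not pass, and the median log2 fold change was 0.67. The largest called rises were those of trh, the precursor of thyrotropin-releasing hormone, at 0.78 ± 0.10, and penka, the precursor of enkephalins, at 0.78 ± 0.14.

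**Figure D4:**
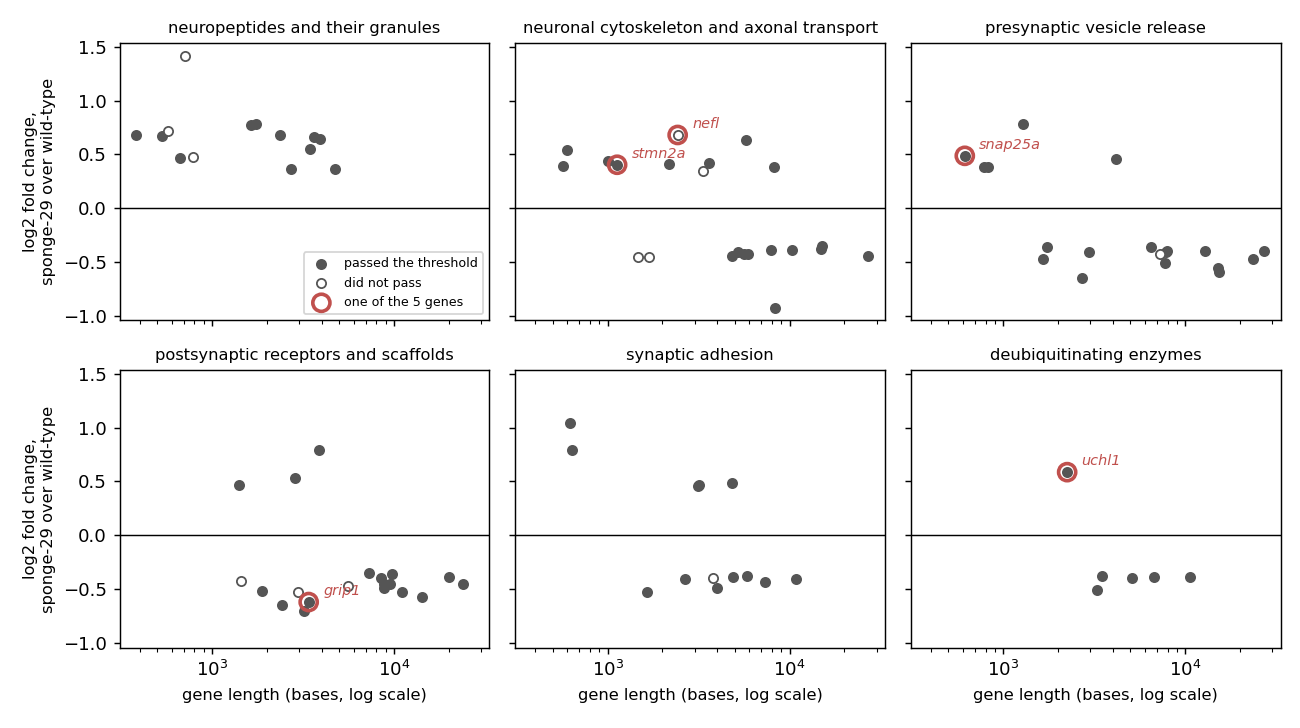
Log2 fold change of sponge-29 over wild-type (y axis) against gene length (x axis, log scale) for the identifiers of the 6 lists. Filled circles passed the threshold, open circles did not, and the red rings mark the 5 genes. Rising identifiers lie mostly at shorter lengths than falling ones, and uchl1 is the only rising one and the shortest of the 6 deubiquitinating enzymes listed.

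Gene length moved with the difference between the groups over the whole table. The median log2 fold change was 0.0931 in the 3512 genes shorter than 1000 bases, 0.0435 and 0.0159 in the next length classes, and -0.100 in the 6117 genes of 4000 bases or longer, of which 3.81% rose and 12.1% fell. In each fish the deviation of gene levels from their mean over all fish was correlated with length, at Spearman rho of -0.207 to -0.043 in sponge-29 fish and 0.085 to 0.157 in wild-type fish, without overlap. The lists were then described with the trend of each library removed. The median log2 fold change was -0.28 for presynaptic, -0.34 for postsynaptic, -0.32 for adhesion, -0.10 for cytoskeletal and -0.33 for deubiquitinating identifiers, and 0.64 for neuropeptides. Every median kept its sign, but the cytoskeletal one was -0.37 with the trend in place. The lists hold genes chosen as changed, so a kept sign shows little. Over all genes the number called lower was 557 in this fit, against 1140 with the trend in place, and the number called higher 972, against 1201. The numbers called lower were 3 for presynaptic, 7 for postsynaptic, 2 for adhesion, 4 for cytoskeletal and 2 for deubiquitinating identifiers, and the numbers called higher 4, 1, 5, 8 and 1. Presynaptic, adhesion and cytoskeletal identifiers were thus called higher more often than lower, the reverse of the fit with the trend in place. Neuropeptides had 8 called higher and 0 called lower.

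Of the 5 genes, snap25a had a length of 615 bases, stmn2a 1127, uchl1 2245, nefl 2424 and grip1 3393 bases, so grip1 was the only one longer than the median tested gene. With the length trend removed their log2 fold changes were 0.43 for snap25a, 0.36 for stmn2a, 0.57 for uchl1, 0.67 for nefl and -0.61 for grip1.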

How the data were processed

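The authors made TruSeq libraries from brain RNA, sequenced single reads and mapped them to the N. furzeri genome, and the submitters' processing notes name bcl2fastq 1.8.4, TopHat2 2.0.6 and featureCounts 1.4.3-p1. They deposited unnormalized counts per gene and, in a second table, RPKM values, which the authors scaled to gene length and library size. The treatment of strand and of reads with several matches is not given in the sources used here. Dividing counts by RPKM and library size gave each gene's length. Lengths of 52.6% of the tested genes are multiples of 3, so many models may hold coding sequence only. 0 of the identifiers matched the RefSeq table of the assembly NfurGRZ-RIMD1, in which nefl has 2 counterparts by symbol (nefla and neflb) and the stmn2 symbol is stmn2b. No sequence or position is therefore given.

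Counts were analysed with R 4.3.3 and edgeR 4.0.16: filterByExpr with a minimum count of 10, TMM scaling, and the quasi-likelihood test of sponge-29 against wild-type at a threshold of 0.05 after Benjamini-Hochberg adjustment of the p-values of 19536 genes. Log2 CPM used a prior count of 2. SE were derived from the same test, as the size of the log2 fold change divided by the square root of its F statistic. Steps were tested on simulated counts. Alternatives were DESeq2 1.42.0, the likelihood ratio test of edgeR, limma 3.58.1 (voom with sample quality weights, and log2(RPKM + 0.1) or log2(RPKM + 1)), other scalings and filters, an offset that removes the trend of each library with gene length (natural spline, 4 degrees of freedom), a threshold of 0.01 and leaving out each fish in turn.

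Members and gene lists were chosen with earlier results of these data known. Symbols came from the study's additional lists of changed genes, given for 1418 identifiers, and the fold changes and p-values in those lists were not used. Genes named are the 5 members, their direct relatives or partners, the 2 largest called rises and falls of each list, and for each member the 3 identifiers with a symbol most like it within groups. Replicates are the study's biological replicates, named by library number.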

Additional observations from a re-analysis of the deposited data

How the results depend on the processing

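The log2 fold changes of the 5 genes kept their direction in all 90 alternative values, which moved by less than the spread between fish. Without any fish left out, nefl ranged from 0.66 to 0.70, grip1 from -0.67 to -0.61, uchl1 from 0.54 to 0.60, snap25a from 0.43 to 0.50 and stmn2a from 0.35 to 0.41. As a description of genes that were chosen on these fish, 4 of the 5 passed with other scalings or filters, RPKM or the length trend removed. In those fits 1529 to 2411 of all genes passed. With the length trend removed stmn2a was close to the threshold, with an adjusted p of 0.0497 in the edgeR quasi-likelihood test. All 5 passed with the likelihood ratio test, DESeq2 or voom, where 1958, 3784 and 3085 of all genes did. At an adjusted p below 0.01, 0 of the 5 and 16 of all genes passed. Leaving out 1 fish gave 1 to 4 of the 5, against 427 to 2125 of all genes. It gave 1 without wild-type fish 45 or sponge-29 fish 47, where 427 and 441 of all genes passed. It gave 2 without wild-type fish 42 or sponge-29 fish 49, where 1153 and 990 did. By gene, uchl1 passed in 8 of these 8 fits, snap25a in 6, stmn2a and grip1 in 3 each. nefl passed in 1, that without wild-type fish 44. Since the 5 were chosen on these differences, nothing is read from these counts.

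Over all genes 2341 were called, 3784 with DESeq2 (1844 higher, 1940 lower), 1529 with the length trend removed (557 lower) and 16 at an adjusted p below 0.01. Leaving out 1 fish gave 427 (without wild-type fish 45) to 2125 calls, 218 to 1085 of them higher and 202 to 1040 lower; without sponge-29 fish 47 there were 441. Presynaptic identifiers called higher numbered 2 to 5 and lower 1 to 12 in these fits, and 3 fell with the length trend removed. Postsynaptic identifiers called higher numbered 0 to 2 and lower 4 to 13; with no count filter, log2(RPKM + 0.1), log2(RPKM + 1) or the length trend removed 1 was called higher, and with the last 7 were called lower. Adhesion identifiers called higher numbered 1 to 5 and lower 1 to 8, with 2 lower once the length trend was removed. Cytoskeletal identifiers called higher numbered 3 to 7 and lower 3 to 9, with 4 lower once the trend was removed. Of the deubiquitinating enzymes 1 was called higher in every fit and 0 to 5 lower, 2 with the trend removed. Neuropeptides called higher numbered 6 to 10. The median r of the 10 gene pairs within groups was -0.051 to 0.42 with 1 fish left out, 0.238 with Spearman's rho and 0.473 with the length trend removed. The cause of these shifts was not tested. The groups were different fish and the labels link none of them in pairs, so no paired analysis was made. The labels give no replicate numbers, and those used here follow library order and only name the fish. Precision is limited by the spread between 4 fish per group, since counting error was at most 3.70% for the 5 genes.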
